A study of Rattus norvegicus with 15 samples.

Results

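The genes described are a set of neuronal genes measured in samples of the posterior cerebral artery of the rat, an artery that runs on the surface of the brain. They were chosen by name as genes of the synapse, of the neuronal cytoskeleton, and of GABA and glutamate transmission. Each gene was read on the probe set with the highest mean signal over all 15 arrays. Of 37 listed genes, 36 had a probe set of their own on the array, out of 10411 genes that did, and Syt1 had none. The 36 genes comprise 9 of synaptic vesicles and their fusion, 8 of neurofilaments, microtubules and the growth cone, 3 of GABA transmission, 8 of glutamate transmission and the postsynaptic density, 3 of dense core granules and 5 other neuronal genes.

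Each array held RNA pooled from the posterior cerebral arteries of 8 Sprague Dawley rats, 7 weeks old and weighing 300 to 350 g, from the side that the labels call ipsilateral. In 3-vessel occlusion (3VO) both vertebral arteries were electrocoagulated and the left common carotid artery was ligated under isoflurane with buprenorphine. In sham surgery the same vessels were exposed and not touched, and intact rats had no surgery. Arteries were taken 24 h or 3 d after surgery, with 3 arrays in each of the 5 groups. All animals were perfused with latex under papaverine, and the artery was dissected by hand from a brain kept in RNAlater. The arrays of a group are numbered here 1 to 3 in the order of their records, and the number pairs nothing between groups. The labels do not say whether the pools of a group were separate animals, so p-values measure only the spread between these arrays. One array labelled sham at 3 d, array 1, has a treatment text that describes the occlusion. The main medians and counts of gene groups that use it, and the correlations, are also given without it. The split of the spread between and within groups is given only with it. The intact arrays carry the last 3 of the 15 array numbers, so position in the array series and the intact state cannot be told apart.

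Neurons release transmitter when synaptic vesicles fuse with the membrane, a step driven by SNARE proteins such as SNAP25 and syntaxin and timed by complexins. Their axons are held open by neurofilaments and by microtubules with the proteins bound to them, and inhibitory and excitatory neurons are told apart by genes of GABA synthesis and of vesicular glutamate transport. Arteries on the brain surface contain no neuronal cell bodies, although nerve fibres run in their outer wall, and the tissue below them is cerebral cortex and midbrain.

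Many neuronal genes are kept silent in other cells by REST, a repressor that binds a 2-part DNA element called RE1. The 250 bases before the transcription starts of the genes described here were searched on both strands for the left part of RE1, CAGCACC, and its right part, GGACAG. The cyclic AMP response element (CRE), TGACGTCA, the GC box, GGGCGG, and the TATA motif, TATAAA, were searched for as well. RefSeq promoters of the GRCr8 build were matched for 25 of the 36 genes. CAGCACC was in 4 of them (16%), those of Chgb, Scg2, Sncb and Syn1, against 5.43% of all 33469 promoters in the table. GGACAG was in 5 (20%), against 18.2%, and the CRE in 2 (8%), those of Scg2 and Syn1, against 1.59%. GGGCGG was in 16 (64%), against 30.5%, and TATAAA in 3 (12%), against 12.9%. Both RE1 parts within 12 bases of each other stood in the promoter of Scg2, with 0 bases between them, and in 28 of all promoters (0.0837%). That search took any gap of up to 12 bases, so a match is not shown to be a whole RE1. These matches describe letters in a window and not binding. The part of these motifs in how the genes moved from array to array was not tested. The stretches with a left RE1 part or a CRE are shown because RE1 is linked to silencing outside neurons and the CRE to activity-driven transcription, with the motif in capitals, read 5′ to 3′ on the strand of the gene.
Scg2, both RE1 parts, which lie on the opposite strand, chr9:88256902-88256954, minus strand: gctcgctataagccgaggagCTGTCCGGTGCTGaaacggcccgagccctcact
Scg2, CRE, chr9:88256962-88257009, minus strand: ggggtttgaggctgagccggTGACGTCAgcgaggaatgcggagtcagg
Syn1, left RE1 part, chrX:3725518-3725564, plus strand: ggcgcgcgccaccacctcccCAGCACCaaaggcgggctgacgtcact
Syn1, CRE, chrX:3725535-3725582, plus strand: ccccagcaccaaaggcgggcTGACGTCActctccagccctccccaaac
Sncb, left RE1 part on the opposite strand, chr17:9851833-9851879, plus strand: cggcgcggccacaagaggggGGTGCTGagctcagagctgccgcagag
Chgb, left RE1 part, chr3:140496684-140496711, plus strand: ccccccttgcctgagatccaCAGCACCt

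The samples had the genes of an artery and of brain tissue. Tagln, a smooth muscle protein, gave signals of 62721 to 148732 over the 15 arrays, and Cldn5, a tight junction protein of brain endothelium, gave 23647 to 51351. Gfap, the intermediate filament of astrocytes, gave 45468 to 113552, and Mbp, a myelin protein, 87478 to 220702. Signals are linear intensities that the authors scaled to the same trimmed mean on every array, and a signal of one probe set cannot be set against that of another. The 36 neuronal genes together held between 0.160% and 0.707% of the summed signal of an array.

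The neuronal genes varied together as one block from array to array. With each gene expressed as log2(signal + 16) minus its own mean over the 15 arrays, the mean over the 36 genes ran from -0.87 on sham 24 h array 1 to 1.19 on intact array 1, a 4.18-fold range. Intact arteries had means of 1.19, 0.99 and -0.09. At 24 h the means were -0.87, -0.02 and -0.86 after sham surgery and 0.60, -0.11 and 0.67 after 3VO. At 3 d they were -0.60, -0.09 and -0.66 after sham surgery and 0.23, -0.86 and 0.49 after 3VO. In every group a single array departed from the other two: intact array 3 and 3VO array 2 at each time were lower, and sham array 2 at each time was higher. Of the sum of squares of these means 54.1% lay between the groups and 45.9% within them, and the pooled SD within groups was 0.55. The highest reading of a gene was on intact array 1 for 17 genes, on intact array 2 for 13, on 3VO 24 h array 1 for 4, and on 3VO 24 h array 3 and 3VO 3 d array 3 for 1 each. On sham 24 h array 1 and 3VO 3 d array 2, 0 of the 36 genes stood above their own mean.

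**Figure D1:**
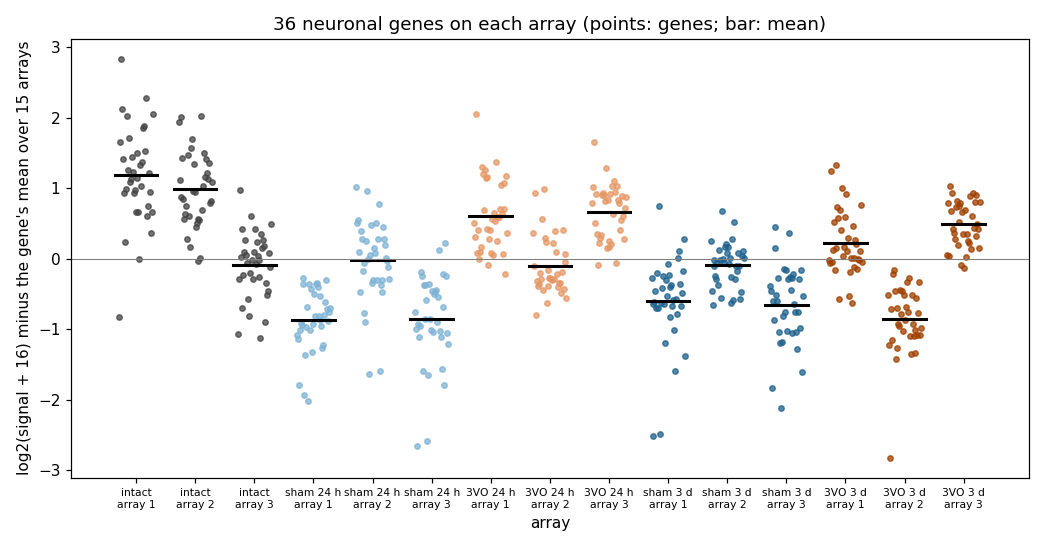
Log2(signal + 16) of each of the 36 neuronal genes minus its mean over 15 arrays (y axis) on each array (x axis), with points for genes, colours for groups and a bar for the mean of the array. The bars of intact arrays 1 and 2 are the highest, at 1.19 and 0.99, and in each group one array stands apart from the other two.

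The correlation of each gene with the mean of the other 35 over the 15 arrays had a median of 0.85, and 0.83 after the group means were removed. It was above 0.7 for 31 of the 36 genes, and for 6.10% of the 8485 other genes with a mean signal of at least 1000. Of the 630 pairs of neuronal genes 629 correlated above 0, with a median r of 0.71. Without sham 3 d array 1 the first 2 medians were 0.86 and 0.86, 31 genes and 6.51% of the others were above 0.7, and 628 pairs correlated above 0 with a median of 0.73. The arrays share one scaling and the 8 rats of a pool, and these values are descriptions of 15 arrays. Sncb, which encodes beta-synuclein, followed the others most closely (r = 0.98), then Snap25 (0.96) and Cplx1 (0.96). The lowest values were those of Dlg4 (0.50), Camk2a (0.50), Slc32a1 (0.61), Nefm (0.64) and Nrgn (0.66). Among genes outside the set, the 10 closest to its mean were Prkar1b (r = 0.98), a protein kinase A subunit, Klc1 (0.98), a kinesin light chain, Rab6b (0.96), Zwint (0.96), Stmn3 (0.96), a relative of Stmn2, Celf4 (0.96), Nrcam (0.96), a neuronal adhesion molecule, Ndrg4 (0.96), Scg3 (0.96), a granin, and Svop (0.96), a vesicle protein.

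Snap25, Cplx1 and Syp belong to the machinery of the synaptic vesicle. Snap25 gave signals of 124806, 69581 and 37834 on the intact arrays, 17534, 26282 and 16616 after sham surgery and 50979, 25802 and 69098 after 3VO at 24 h, and 22922, 27732 and 21628 after sham surgery and 31254, 17931 and 51631 after 3VO at 3 d. All intact readings of this SNARE protein lay above all sham readings, and the 3VO readings overlapped both. The signal of Cplx1 was 35707, 36016 and 17833 in intact arteries. It was 7084, 9606 and 6192 at 24 h and 9694, 12462 and 7328 at 3 d after sham surgery, and 17766, 10724 and 25243 at 24 h and 14485, 5968 and 21387 at 3 d after 3VO. Cplx1, a complexin that clamps the fusion machinery, was likewise higher on every intact array than on any sham array, and at 24 h higher on every 3VO array than on any sham array. For Syp the intact arrays read 17928, 23970.5 and 6799.5, the sham arrays 5703, 9348 and 10837 at 24 h and 6662, 6725 and 4688 at 3 d, and the 3VO arrays 15226, 6904 and 14165 at 24 h and 9179, 5478 and 13158 at 3 d. Syp, which encodes the vesicle membrane protein synaptophysin, overlapped between 3VO and sham at both times and was lower on every sham array at 3 d than on any intact array.

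Syn2 gave signals of 7526, 7129.7 and 2266 on the intact arrays, 2615, 3705 and 927 after sham surgery and 6872, 4294 and 6046 after 3VO at 24 h, and 2037, 2168 and 2652 after sham surgery and 3236, 1515 and 4041 after 3VO at 3 d. Syn2, a synapsin that tethers vesicles to one another, was higher on each 3VO array than on each sham array at 24 h, while intact array 3 fell inside the sham range. For Cplx2 the intact arrays read 3410.3, 3219 and 1089, the sham arrays 919, 2352 and 912 at 24 h and 1091, 1503 and 1982 at 3 d, and the 3VO arrays 1779, 1359.7 and 2264 at 24 h and 2564, 1534 and 3426 at 3 d. The second complexin, Cplx2, had its highest reading on 3VO 3 d array 3, and none of the 6 comparisons of 2 groups separated its arrays. Of the other vesicle genes, Syn1 ranged from 5503 to 21625 with a median of 8383, Stx1a, a syntaxin of the plasma membrane, from 767 to 5085 with a median of 2036, Nsf, the ATPase that takes SNARE complexes apart, from 5817 to 23319 with a median of 7779.5, and Sncb from 3176 to 22169 with a median of 7127. Nsf did not overlap between 3VO and sham at 24 h, and Syn1, Stx1a and Sncb did.

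Cytoskeletal genes differed in how far they moved. Stmn2 gave signals of 41574, 19209 and 9693 on the intact arrays, 3671, 6139 and 2875 after sham surgery and 17729, 6749.6 and 14788 after 3VO at 24 h, and 8620.2, 7554 and 4148 after sham surgery and 10332, 3389 and 11551 after 3VO at 3 d. Stmn2, a microtubule regulator of growing axons, spanned a 14.5-fold range between sham 24 h array 3 and intact array 1, and its 3VO readings at 24 h lay above all sham readings of that time. The signal of Map1b was 39431, 40164 and 20386 in intact arteries. It was 15303, 21329 and 16135 at 24 h and 16703, 23125 and 18746 at 3 d after sham surgery, and 19427, 15769 and 22832 at 24 h and 21155, 14962 and 19410.2 at 3 d after 3VO. Map1b, a microtubule-binding protein of axons, set intact arrays 1 and 2 apart from the other 13, which lay between 14962 and 23125. A dimmer probe set of Map1b, with a mean signal of 1945, did not separate them. On it intact array 2 read 2078.6, sham 3 d array 3 read 2852.5, and intact array 3 was the lowest, at 1392.7. For Nefm the intact arrays read 17158, 10562 and 12813, the sham arrays 8446, 11453 and 7625 at 24 h and 8178, 10882 and 13971 at 3 d, and the 3VO arrays 11183, 8756 and 12453 at 24 h and 13223, 8629 and 10989.8 at 3 d. Nefm, the middle neurofilament chain, had a range of only 2.25-fold, and its groups overlapped throughout.

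Mapt gave signals of 12328, 15120.2 and 8333 on the intact arrays, 4108, 6162 and 3880.2 after sham surgery and 10393, 6462 and 8744 after 3VO at 24 h, and 7376, 8232 and 6959 after sham surgery and 11755, 5455 and 9978 after 3VO at 3 d. Mapt, which encodes tau, did not overlap at 24 h between 3VO and sham, nor between intact and either sham group. Gap43, a growth cone protein, ranged from 2196 to 17472 with a median of 5087, and its 3VO arrays at 24 h were above the sham arrays. Nefl, the light neurofilament chain, ranged from 3165 to 14404 with a median of 6202. The heavy chain, Nefh, ranged from 2008 to 11646 with a median of 3741, and Map2, a protein of dendritic microtubules, from 3633 to 23182 with a median of 10209. Nefh was the one gene of the 36 whose 3VO readings at 24 h were all below the intact readings (6.19% of all probe sets showed this).

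All 3 GABA genes lay lower on every sham array at 24 h than on any intact array, which 7.41% of all probe sets did. Gad1 gave signals of 33356, 13804 and 9847 on the intact arrays, 2132, 4814 and 2708 after sham surgery and 20389.8, 6749.6 and 10119.8 after 3VO at 24 h, and 13834, 6319 and 5444 after sham surgery and 20628, 3069 and 9993 after 3VO at 3 d. Gad1, an enzyme that makes GABA from glutamate, was below every intact reading and every 3VO reading of the same time on all sham arrays at 24 h, whereas at 3 d sham array 1 reached the intact range. The signal of Slc32a1 was 4992, 2229.6 and 1763 in intact arteries. It was 951, 444 and 1499.7 at 24 h and 446, 1971 and 1179.8 at 3 d after sham surgery, and 2089.6, 1176 and 1321 at 24 h and 1896, 959.8 and 1514 at 3 d after 3VO. Slc32a1, which loads GABA into vesicles, overlapped between groups in the other comparisons. For Gad2 the intact arrays read 2369.5, 1189.8 and 1015, the sham arrays 372, 935 and 751 at 24 h and 161, 1068 and 805 at 3 d, and the 3VO arrays 2264, 1459.7 and 1238 at 24 h and 1642, 599.9 and 1638 at 3 d. Gad2, the second GABA-making enzyme, had its lowest reading on sham 3 d array 1, the array on which Gad1 was the highest of its group.

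Of the 5 genes that followed the block least, 3 were glutamate and postsynaptic genes. Nrgn gave signals of 11418, 16827 and 11716 on the intact arrays, 9039, 16274 and 8256 after sham surgery and 17841, 13368 and 23467 after 3VO at 24 h, and 8858, 7362 and 9548 after sham surgery and 7925, 6744 and 14549 after 3VO at 3 d. Nrgn, a calmodulin-binding protein of forebrain dendrites, had its highest reading on 3VO 24 h array 3, and it overlapped between 3VO and sham at both times. The signal of Camk2b was 24027, 16552 and 6213 in intact arteries. It was 3460.2, 10858 and 3809 at 24 h and 4865, 5521 and 5536 at 3 d after sham surgery, and 9448, 7084 and 15376 at 24 h and 7279.6, 3245 and 13120.4 at 3 d after 3VO. Camk2b, a calcium-dependent kinase, was highest on intact arrays 1 and 2 and on array 3 of both 3VO groups, and its sham arrays at 3 d lay below all intact arrays. For Gria2 the intact arrays read 9358, 4785 and 2418, the sham arrays 1033, 8248 and 2824 at 24 h and 3578, 6817 and 968 at 3 d, and the 3VO arrays 9429, 5212 and 7927 at 24 h and 6879, 2179.5 and 7137 at 3 d. Gria2, an AMPA receptor subunit, had its highest readings on 3VO 24 h array 1 and intact array 1 and overlapped in all comparisons.

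Gria1 gave signals of 1643, 1169 and 508 on the intact arrays, 468, 914 and 584 after sham surgery and 1849, 1532 and 1479 after 3VO at 24 h, and 569, 514 and 324 after sham surgery and 509.9, 393 and 873 after 3VO at 3 d. Gria1, another AMPA receptor subunit, was higher on all 3VO arrays than on all sham arrays at 24 h. The signal of Dlg4 was 4996, 6276 and 3597 in intact arteries. It was 3295, 5130 and 3723 at 24 h and 3673, 3476 and 5817 at 3 d after sham surgery, and 4527, 3318 and 3978 at 24 h and 3789, 3805 and 5698 at 3 d after 3VO. On the probe set used, Dlg4, the scaffold PSD-95, varied least of the 36 genes, with a 1.90-fold range, and no comparison separated its arrays. Another probe set of Dlg4 had a 2.00-fold range. A further one, with a mean signal of 1232, had an 11.3-fold range. On it the sham arrays at 3 d (238.9, 435.9 and 748.9) lay below all intact arrays (1555.7, 2224.6 and 1415.7). For Camk2a the intact arrays read 1224, 8471 and 1031, the sham arrays 1028, 4436 and 1291 at 24 h and 1799, 2614 and 1672 at 3 d, and the 3VO arrays 3116, 2834 and 3785 at 24 h and 2171, 1531 and 2266 at 3 d. Camk2a, a kinase of excitatory forebrain neurons, stood out on intact array 2 and sham 24 h array 2 and was near its lowest on intact array 1. Grin1, the obligate NMDA receptor subunit, ranged from 483 to 8887 with a median of 2971, and its 3VO arrays at 24 h lay above its sham arrays.

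Dense core granules carry peptides and hormones. Scg2 gave signals of 11844, 5789.9 and 4811 on the intact arrays, 3268, 7003 and 3098 after sham surgery and 15035, 7600.4 and 12387 after 3VO at 24 h, and 3857, 6995 and 2772 after sham surgery and 5818, 2681 and 6738 after 3VO at 3 d. Scg2, a granin whose promoter stretches are shown above, was higher on each 3VO array than on each sham array at 24 h. The signal of Chgb was 18611, 7790.5 and 4306 in intact arteries. It was 2104, 4548 and 2236 at 24 h and 2775, 4179 and 2809.5 at 3 d after sham surgery, and 4487, 2426 and 6029.7 at 24 h and 4124, 2584 and 8694 at 3 d after 3VO. Chgb, a granin as well, was highest on intact array 1, and its sham arrays at 3 d were below all intact arrays. For Chga the intact arrays read 3822, 2142 and 1039, the sham arrays 139, 771 and 69 at 24 h and 78, 325 and 134 at 3 d, and the 3VO arrays 2216, 1009.8 and 1677 at 24 h and 1254, 60 and 538 at 3 d. Chga, the granin of adrenal and endocrine granules, had the widest range of the 36 genes. It was the one gene of the 36 with readings under the minimum signal of 100, on 3 arrays, so its range is given only as at least 38.2-fold, from 100 to its highest reading, and its 3VO readings at 24 h were all above the sham readings.

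Thy1 gave signals of 25669.9, 34432 and 21154 on the intact arrays, 10809.6, 19543 and 16726 after sham surgery and 17156, 19273 and 24071 after 3VO at 24 h, and 17652, 20370.2 and 17857 after sham surgery and 21422, 15823 and 26688 after 3VO at 3 d. Thy1, a surface protein of neurons, separated intact from both sham groups. The signal of Eno2 was 37054, 29059 and 20067 in intact arteries. It was 15406, 16633 and 15712 at 24 h and 11566, 18162 and 13118 at 3 d after sham surgery, and 20911, 16192 and 21765 at 24 h and 20841, 13599 and 24169 at 3 d after 3VO. Eno2, the neuronal enolase, did the same. For Vsnl1 the intact arrays read 55962, 28552 and 19003, the sham arrays 8301, 11084 and 5789.8 at 24 h and 5184, 13618 and 9333 at 3 d, and the 3VO arrays 17442, 9197 and 24692 at 24 h and 12993, 6803 and 23592 at 3 d. Vsnl1, a neuronal calcium sensor, also lay below every intact reading on all sham arrays.

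Kcnc2 gave signals of 3771, 5215 and 2436 on the intact arrays, 788, 505 and 497 after sham surgery and 3586, 1024 and 3916 after 3VO at 24 h, and 686, 1548 and 899 after sham surgery and 3221, 925 and 2776 after 3VO at 3 d. Kcnc2, a potassium channel of fast-firing neurons, was higher on each 3VO array than on each sham array at 24 h, and lower on all sham arrays than on any intact array. The signal of Uchl1 was 16745, 18638 and 9715 in intact arteries. It was 6249.6, 9763 and 5053 at 24 h and 12871, 11395 and 3444 at 3 d after sham surgery, and 23721, 11032 and 17301 at 24 h and 17963, 4955 and 11682 at 3 d after 3VO. Uchl1, an abundant neuronal ubiquitin hydrolase, had its highest reading on 3VO 24 h array 1 and did not overlap between 3VO and sham at 24 h. For Slc17a7 the intact arrays read 10000, 15621 and 1753, the sham arrays 2104, 6595 and 2641 at 24 h and 1903, 2556 and 3177 at 3 d, and the 3VO arrays 4585, 4121 and 7436 at 24 h and 2478, 1495 and 7119 at 3 d. Slc17a7, the vesicular glutamate transporter of cortical neurons, overlapped in all 6 comparisons of 2 groups.

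**Figure D2:**
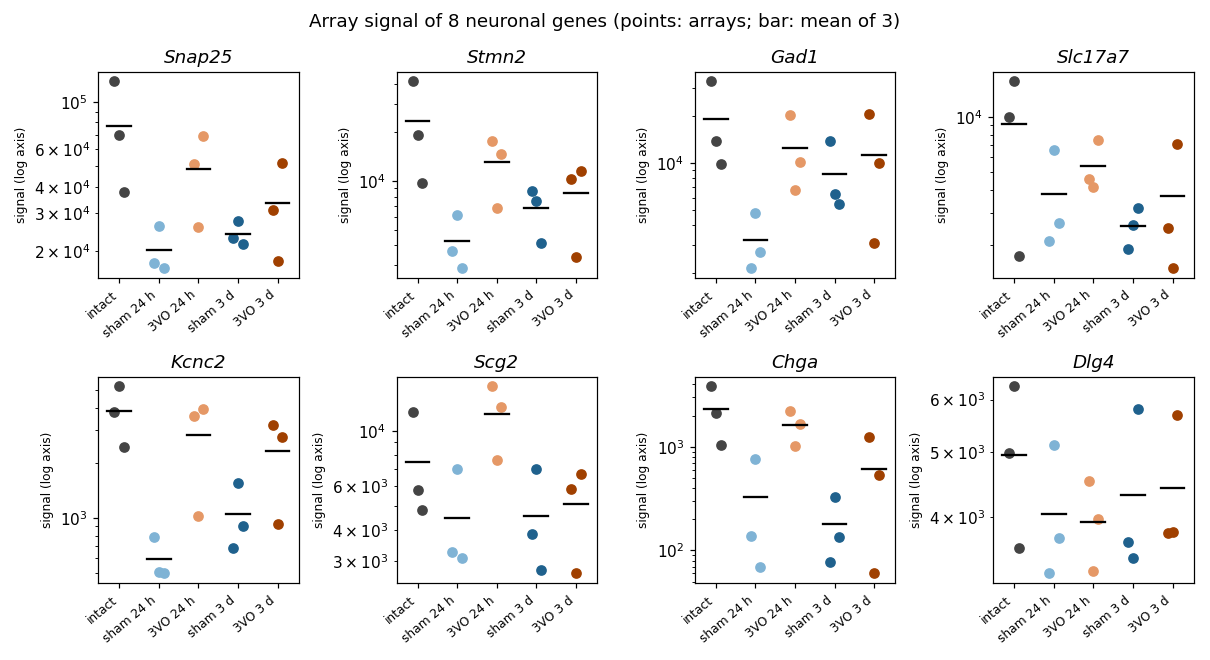
Array signal (y axis, log scale, a separate axis for each gene) of 8 neuronal genes in the 5 groups (x axis), with a point for each array and a bar for the mean of 3 arrays. Kcnc2, Gad1, Stmn2, Scg2 and Chga lie higher on every 3VO array than on every sham array at 24 h, and Dlg4, on the probe set shown, stays within a 1.90-fold range.

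3VO was first compared with sham surgery at the same time, in which the same vessels were exposed but not coagulated or ligated. At 24 h, 35 of the 36 neuronal genes had a higher mean after 3VO, with a median log2 difference of 0.91, against -0.02 over all 15737 probe sets tested, of which 47.3% were higher. None of the 36 passed at a limma adjusted p under 0.05, at which 8 probe sets (0.0508%) passed. At an unadjusted p under 0.05, 17 genes were higher and 0 lower, where 3.25% of all probe sets were higher and 3.72% lower. In 15 genes every 3VO array lay above every sham array, a separation that 6.42% of probe sets showed, and in 0 every 3VO array lay below (9% of probe sets). The 36 genes moved together from array to array, so these counts, here and in the comparisons below, are not 36 independent results. The mean over the 36 overlapped between these groups, with -0.02 on sham array 2 and -0.11 on 3VO array 2.

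The smallest p belonged to Kcnc2, with a log2 difference of 2.03 (SE 0.54, adjusted p = 0.365), then Scg2 with 1.44 (SE 0.45, adjusted p = 0.506) and Mapt with 0.86 (SE 0.28, adjusted p = 0.53). Chga, with 1 sham reading under 100, differed by 2.85 (SE 0.96, adjusted p = 0.539), and by 2.70 (SE 0.85, adjusted p = 0.492) with readings under 100 raised to 100, the largest size of the 36 in both cases. Gad1 differed by 1.88 (SE 0.63, adjusted p = 0.534) and Stmn2 by 1.59 (SE 0.55, adjusted p = 0.549). The one gene with a lower mean was Dlg4, at -0.02 (SE 0.26, adjusted p = 0.996). By role, the median differences were 0.68 for the 9 vesicle genes, 0.87 for the 8 cytoskeletal genes, 1.30 for the 3 GABA genes, 0.89 for the 8 glutamate and postsynaptic genes, 1.44 for the 3 granule genes and 0.96 for the 5 others. Without sham array 2 the median was 1.31 with all 36 genes higher, and without 3VO array 3 it was 0.71 with 35 higher.

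At 3 d, 34 of the 36 genes had a higher mean after 3VO than after sham surgery, with a median of 0.36, against -0.01 over all probe sets, of which 48.5% were higher. None passed the adjusted test, and 0% of all probe sets did. At an unadjusted p under 0.05, 0 of the 36 were higher or lower, with 2.37% and 2.36% of all probe sets, and 0 genes separated the groups, with 4.34% of probe sets above and 4.75% below. The smallest p values were those of Kcnc2, with a log2 difference of 1.03 (SE 0.54, adjusted p = 0.999), Eno2 with 0.44 (SE 0.24, adjusted p = 0.999) and Gad2 with 1.14 (SE 0.63, adjusted p = 0.999). Map1b, at -0.08 (SE 0.24, adjusted p = 0.999), and Camk2a, at -0.02 (SE 0.65, adjusted p = 0.999), had lower means after 3VO. Single arrays set this value: without 3VO array 3 the median was 0.03 and 20 genes were higher, without 3VO array 2 it was 0.78 with 36 higher, and without sham array 2 it was 0.58 with 33 higher. Without sham array 1, whose treatment text describes the occlusion, it was 0.33 with 31 genes higher. In that fit 0 of the 36 had an unadjusted p under 0.05 (2.93% of all probe sets were higher and 3.09% lower). In 0 genes the arrays of the groups did not overlap (9.29% of probe sets lay above and 11.2% below).

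The change of the 3VO effect from 24 h to 3 d was tested as a difference of differences. It was below 0 for 32 of the 36 genes, with a median of -0.59, against 0.005 over all probe sets, of which 50.6% were above 0. None passed the adjusted test, at which 0% of all probe sets passed, and 0 of the 36 had an unadjusted p under 0.05 in either direction, with 1.49% of all probe sets higher and 1.30% lower. The smallest p values were those of Scg2, at -1.27 (SE 0.63, adjusted p = 0.999), Gad1, at -1.74 (SE 0.89, adjusted p = 0.999), and Stmn2, at -1.39 (SE 0.77, adjusted p = 0.999). Cplx2, Eno2, Syp and Dlg4 had values above 0, between 0.07 and 0.19. Leaving out 1 array moved the median between -0.89, without 3VO 3 d array 3, and -0.09, without 3VO 3 d array 2. Without sham 3 d array 1 it was -0.67, with 32 genes below 0. The effects at 24 h and 3 d are therefore not shown to differ for any of the 36 genes.

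**Figure D3:**
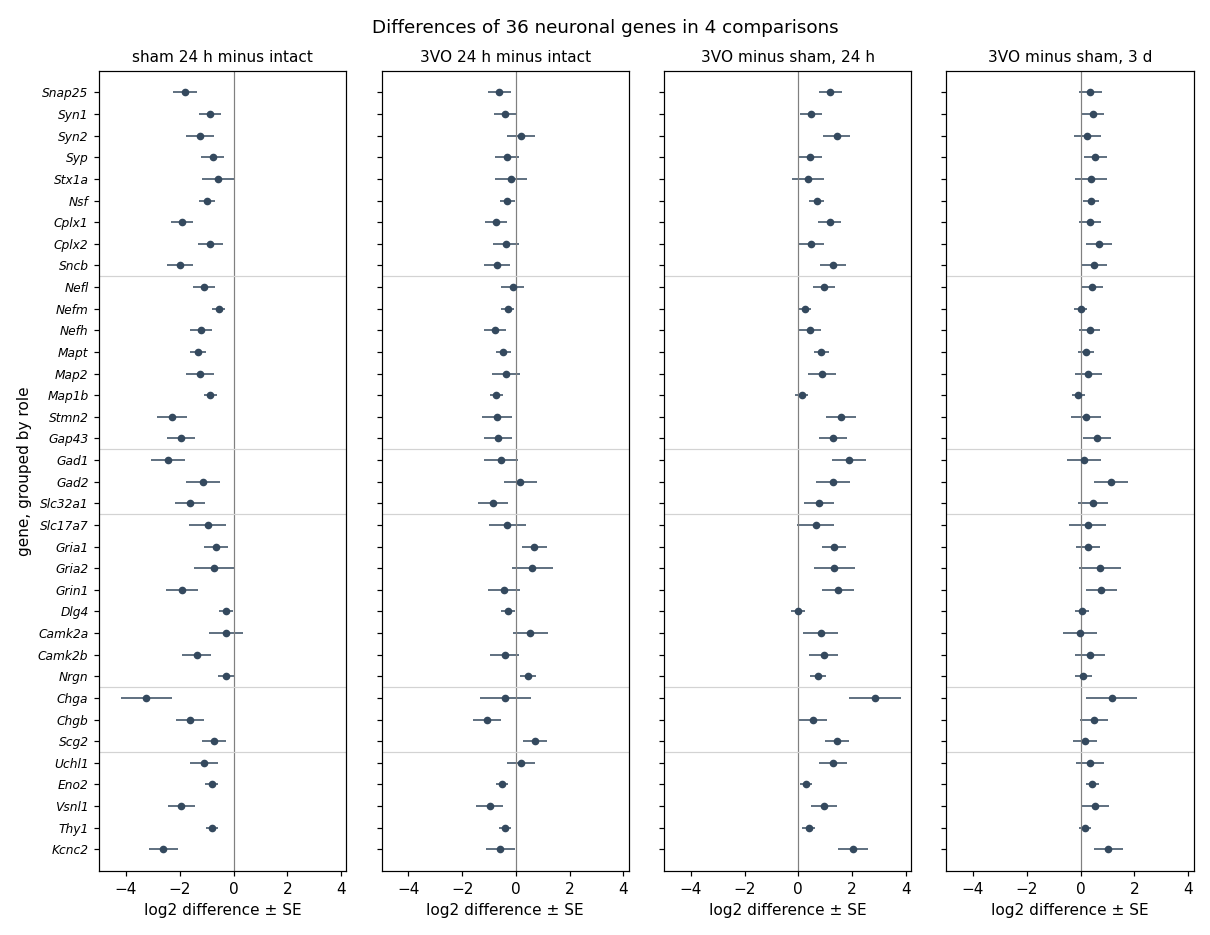
Log2 difference of group means (x axis, with the standard error of the fit as bars) for each of the 36 neuronal genes (y axis, grouped by role) in 4 comparisons. All points lie below 0 for sham 24 h against intact, 35 of 36 lie above 0 for 3VO against sham at 24 h, and 34 of 36 do at 3 d.

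Each operated group was then compared with intact arteries. These 4 comparisons share the 3 intact arrays, and those with sham surgery share the sham arrays with the comparisons above, so their directions are not independent of each other. At 24 h after sham surgery all 36 genes had lower means than in intact arteries, with a median log2 difference of -1.11, against 0.04 over all probe sets, of which 54.2% were higher. None passed the adjusted test, and 0% of all probe sets did. At an unadjusted p under 0.05, 25 genes were lower and 0 higher, where 7.02% of probe sets were lower and 8.01% higher. In 16 genes all sham arrays lay below all intact arrays and in 0 above them, where 7.41% and 9.96% of probe sets did. Kcnc2 differed by -2.61 (SE 0.54, adjusted p = 0.117), Mapt by -1.32 (SE 0.28, adjusted p = 0.131) and Cplx1 by -1.92 (SE 0.42, adjusted p = 0.135). Gad1 differed by -2.44 (SE 0.63, adjusted p = 0.135), Snap25 by -1.81 (SE 0.43, adjusted p = 0.135) and Chga by -3.24 (SE 0.96, adjusted p = 0.162), or -3.09 with its 1 reading under 100 raised to 100. The smallest differences were those of Dlg4, at -0.28 (SE 0.26, adjusted p = 0.655), and Camk2a, at -0.29 (SE 0.65, adjusted p = 0.884).

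At 3 d after sham surgery all 36 genes were again lower than in intact arteries, with a median of -1.09, against 0.08 over all probe sets, of which 58.8% were higher. None passed the adjusted test (0% of all probe sets). At an unadjusted p under 0.05, 24 were lower and 0 higher (5.55% and 8.65% of probe sets), and in 16 the sham arrays lay wholly below and in 0 wholly above (5.34% and 9.86%). Eno2 differed by -0.99 (SE 0.24, adjusted p = 0.143), Chga by -3.61 (SE 0.96, adjusted p = 0.168), or -3.51 with its 1 reading under 100 raised to 100, and Cplx1 by -1.56 (SE 0.42, adjusted p = 0.171). Without sham 3 d array 1 the median was -1.01, with all 36 genes lower, 18 of them at an unadjusted p under 0.05 (4.43% of probe sets) and 17 wholly below (8.27%), and 0 passed.

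At 24 h after 3VO, 28 of the 36 genes had lower means than in intact arteries, with a median of -0.40, against 0.0048 over all probe sets, of which 50.6% were higher. None passed the adjusted test, which 29 probe sets (0.184%) passed. At an unadjusted p under 0.05, 0 genes were higher (5.98% of probe sets) and 2 were lower (3.98%), Map1b at -0.74 (SE 0.24, adjusted p = 0.318) and Eno2 at -0.52 (SE 0.24, adjusted p = 0.497). In 1 gene, Nefh, the 3VO arrays lay wholly below the intact arrays (6.19% of probe sets), and in 0 wholly above (7.59%). Chgb followed these in p at -1.08 (SE 0.52, adjusted p = 0.506). The 8 genes with higher means after 3VO were Scg2 at 0.70 (SE 0.45), Gria1 at 0.69 (SE 0.45), Gria2 at 0.61 (SE 0.76), Camk2a at 0.54 (SE 0.65), Nrgn at 0.44 (SE 0.30), Uchl1, Syn2 and Gad2, and 4 of them belong to the glutamate and postsynaptic group, whose median was 0.07. Without 3VO array 2 the median over the 36 was -0.18, with 12 genes higher.

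At 3 d after 3VO, 35 of the 36 genes were lower than in intact arteries, with a median of -0.76, against 0.07 over all probe sets, of which 57% were higher. None passed the adjusted test, which 35 probe sets (0.222%) passed. At an unadjusted p under 0.05, 9 were lower and 0 higher (4.59% and 8.32% of probe sets), and 0 separated the groups (5.11% of probe sets lay wholly below and 10.3% wholly above). Map1b differed by -0.80 (SE 0.24, adjusted p = 0.195), Cplx1 by -1.21 (SE 0.42, adjusted p = 0.252) and Snap25 by -1.17 (SE 0.43, adjusted p = 0.287), while Cplx2 stood at 0.06 (SE 0.47, adjusted p = 0.972). Without 3VO array 2 the median was -0.33, with 6 genes higher.

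Intact array 3 decided whether genes passed these comparisons. Without it, 16 of the 36 passed as lower at 24 h after sham surgery (5.20% of all probe sets passed in either direction), with a median over the 36 of -1.39. They were Map1b at -1.19 (adjusted p = 0.015), Mapt at -1.56 (adjusted p = 0.0192), Snap25 at -2.24 (adjusted p = 0.0192), Kcnc2 at -2.89 (adjusted p = 0.0229), Cplx1, Stmn2, Sncb, Gap43, Nsf, Eno2, Vsnl1, Grin1, Gad1, Chgb, Thy1 and Syn2. At 3 d after sham surgery 5 passed, Eno2, Map1b, Nsf, Syp and Snap25 (1.17% of all probe sets), with a median of -1.49. With sham 3 d array 1 left out as well, 0 of the 36 passed at 3 d (0% of all probe sets), where the smallest adjusted p was 0.109, and the median was -1.46. After 3VO, Map1b alone passed at both times, where 1.44% of all probe sets passed at 24 h and 1.64% at 3 d, with medians of -0.85 and -1.12. Without intact array 1 the 4 medians were -0.84 and -0.81 after sham surgery and -0.17 and -0.48 after 3VO, and 0 of the 36 passed. Without intact array 2 they were -1.01, -0.94, -0.25 and -0.55, and 0 passed.

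Gad1 did not keep one ratio to Slc17a7 or Camk2a over the arrays. Measured from its own mean over the 15 arrays, Gad1 stood at 2.02 and Slc17a7 at 1.38 on intact array 1, whereas on intact array 2 they stood at 0.75 and 2.02. Camk2a was at -0.83 on intact array 1 and 1.94 on intact array 2, although the mean over the 36 genes was alike on both, at 1.19 and 0.99. Gad1 exceeded Slc17a7 by 1.95 on 3VO 3 d array 1, by 1.76 on sham 3 d array 1, by 1.38 on intact array 3 and by 1.05 on 3VO 24 h array 1. Array 1 of 3VO 24 h, of 3VO 3 d and of sham 3 d carry the numbers 1, 2 and 3 of the array series. On these arrays the excess of Gad1 and the position in the series cannot be told apart. Gad1 fell short of Slc17a7 by values of -1.55, -1.08 and -1.06 on the 3 sham arrays at 24 h, and of -1.27 on intact array 2. The pair with the lowest correlation among the 630 was Slc32a1 and Camk2a, with r = -0.06 over 15 arrays and -0.12 without sham 3 d array 1. The GABA genes as a group did not always follow Gad1. On sham 3 d array 1 the mean was -1.11 for the 3 GABA genes and -0.48 for the 8 glutamate and postsynaptic genes. These means were -0.62 and -0.81 on sham 24 h array 3. On sham 24 h arrays 1 and 2 the GABA mean was the lower, at -1.275 and -0.81 against -0.86 and 0.54. No test was made of this balance, which was chosen after the values were seen.

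**Figure D4:**
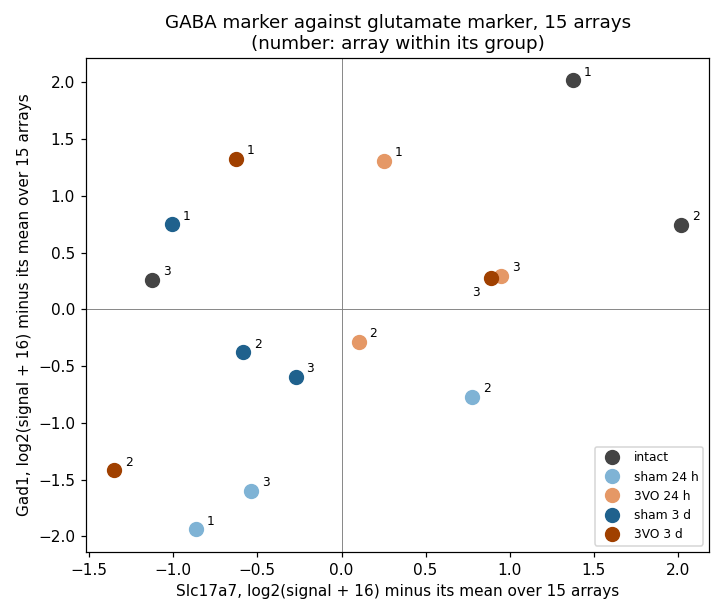
Gad1 (y axis) against Slc17a7 (x axis), each as log2(signal + 16) minus its mean over 15 arrays, with a point for each array, colours for groups and the number of the array in its group. All 3 sham 24 h arrays lie at Gad1 values of -0.77 or lower, and arrays of the other groups spread over both axes.

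Several genes had further probe sets, 30 in all for 22 genes, and some of them moved in the other direction. Kcnc2 had 5 others, with mean signals of 228 to 744. In sham at 24 h against intact, 3 of them had higher means in sham arteries, with log2 differences of 0.33, 0.46 and 0.95, against -2.61 on the brightest. With all probe sets of a gene averaged, the log2 difference of Kcnc2 was 0.58 for 3VO against sham at 24 h and -0.22 for sham at 24 h against intact, so the values of this gene rest on a single probe set. For 3VO against sham at 24 h, Camk2a showed -0.14 and -1.48 on its other probe sets against 0.83 on the brightest, and Dlg4 showed 1.03 on 1 of its others. Gad1 showed -0.61 on its second probe set for 3VO against sham at 3 d. Gap43 and Grin1 each had a dim probe set, with mean signals of 82.1 and 201, that was lower after 3VO than after sham. Gap43 stood at -0.15 on it at 24 h and at -1.60 at 3 d (unadjusted p = 0.0375), where its 3VO arrays lay wholly below its sham arrays, and Grin1 stood at -0.47 and -0.66. For sham at 24 h against intact, a second probe set of Dlg4 stood at 0.24, and at 3 d the dim one of Gap43 stood at 1.59. Slc17a7 showed 0.75 on its other probe set for 3VO at 24 h against intact, against -0.32 on the brightest. For the difference of differences Mapt showed 0.57 against -0.66, and 1 probe set of Camk2a showed 2.63 against -0.85. Stmn2, Map1b, Syn1, Gria2 and Stx1a each had an opposed value in 1 comparison, of a size between 0.01 and 0.45.

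Other cell types were read beside the neuronal genes, each through a list of marker genes. In RNA from whole tissue, fewer cells of a type and less RNA per cell cannot be told apart. At 24 h a list of 65 other neuronal genes followed the 36. Of these 65, 58 were higher after 3VO than after sham, with a median of 0.68 (47.3% of all probe sets were higher). In sham against intact arteries 61 were lower, with a median of -1.23 (54.2% of all probe sets were higher). None of the 65 passed in either comparison (0.0508% and 0% of all probe sets). At 3 d after 3VO 47 of them were higher than after sham, with a median of 0.15 against 0.36 for the 36. Without sham 3 d array 1, 38 were higher, with a median of 0.07 against 0.33. In sham at 3 d against intact arteries 57 were lower, with a median of -0.89, or 55 and -0.67 without that array. Ywhah, a 14-3-3 protein abundant in brain, read 61411 to 79874 in intact arteries, 32212 to 42924 in sham arteries at 24 h and 44609.5 to 59507 in 3VO arteries at 24 h. Ndrg4 read 34947 to 71512, 17798 to 26952 and 23682 to 62039 in the same groups. Cpe, which processes peptides in granules and is made by many cells, read 127559 to 183778, 132648 to 153368 and 136659.9 to 161658.

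Smooth muscle genes ran the other way in the comparisons that use sham arteries, at both times. At 24 h all 16 had lower means after 3VO than after sham surgery, with a median of -0.62. All 16 were higher in sham than in intact arteries, with a median of 0.43, although none passed. At 3 d all 16 were lower after 3VO than after sham surgery (median -0.38, or -0.57 without sham array 1). In sham at 3 d against intact arteries 15 of the 16 were higher (median 0.23, or 0.45 without that array), and none passed. Between 3VO and intact arteries the smooth muscle genes had the direction of the neuronal genes. There 12 of the 16 were lower at 24 h (median -0.11) and 12 at 3 d (median -0.18), and none passed. The summed signal of the 16 was 0.366% to 0.678% of the array in intact arteries, 0.659% to 0.764% in sham and 0.383% to 0.555% in 3VO arteries at 24 h, and 0.438% to 0.764% in sham and 0.354% to 0.582% in 3VO arteries at 3 d. The lowest of the sham values at 3 d was that of array 1, and arrays 2 and 3 gave 0.764% and 0.607%. That of the 36 neuronal genes was 0.282% to 0.707%, 0.160% to 0.271%, 0.239% to 0.443%, 0.198% to 0.265% and 0.163% to 0.399% in the order of these groups. Of 14 endothelial genes, all were higher in sham at 24 h than in intact arteries, with a median of 0.54 (54.2% of all probe sets were higher). All 14 were higher in sham at 3 d as well (median 0.35, or 0.36 without array 1, with 58.8% of all probe sets higher). After 3VO 12 of the 14 were higher at 24 h (median 0.29) and 12 at 3 d (median 0.33), with 50.6% and 57% of all probe sets. The part of vessel wall content in the neuronal differences was not tested.

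Glial genes spread less between arrays than the neuronal genes. Of 16 astrocyte genes 12 were higher after 3VO than after sham at 24 h, with a median of 0.46, and 12 were lower in sham than in intact arteries, with a median of -0.62. The mean astrocyte level of an array ran from -0.45 to 0.35, against -0.87 to 1.19 for the neuronal genes, and their summed share was 0.573% to 0.657% in intact, 0.452% to 0.518% in sham and 0.486% to 0.615% in 3VO arteries at 24 h. At 3 d it was 0.457% to 0.654% in sham, or 0.457% to 0.541% without array 1, and 0.464% to 0.637% in 3VO arteries, and 9 of the 16 astrocyte genes were higher after 3VO, with a median of 0.0016. Without sham 3 d array 1, 13 of the 16 were higher, with a median of 0.25. Of 13 oligodendrocyte genes 10 had higher means 24 h after 3VO than after sham (median 0.31) and 10 had lower means at 3 d (median -0.24), or 9 without sham 3 d array 1 (median -0.21). Mobp, a myelin gene, read 11576 on 3VO 24 h array 2 and 89561 on 3VO 3 d array 1 and the mean oligodendrocyte level of an array ran from -0.72 to 0.82. The part of brain tissue on the dissected artery in the neuronal differences was not tested.

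Choroid plexus genes marked 2 arrays. Ttr, the thyroid hormone carrier of choroid plexus, read 282179 on intact array 2 and 261007 on sham 3 d array 3, and 9354 at its lowest. The mean of 10 choroid plexus genes was 2.74 and 2.58 on these arrays and at most 1.09 on the others. Without both arrays, a choice made after the data were seen, the neuronal median for 3VO against sham at 24 h was 0.91, the same value, as that comparison uses neither array, and at 3 d it was 0.29 with 28 genes higher. Of 14 microglia and macrophage genes, all 14 had higher means than in intact arteries after 3VO at 24 h and at 3 d, and 4 and 2 of them passed (0.184% and 0.222% of all probe sets, of which 50.6% and 57% had higher means). After sham surgery all 14 were higher than in intact arteries at 24 h (median 0.47) and 11 at 3 d (median 0.25), with 54.2% and 58.8% of all probe sets. Without sham 3 d array 1, 10 were higher at 3 d (median 0.15). None passed after sham surgery (0% of all probe sets). Of 12 genes of peripheral nerve and Schwann cells, 7 had higher means 24 h after 3VO than after sham (median 0.29), and 8 had lower means in sham at 24 h than in intact arteries (median -0.10).

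**Figure D5:**
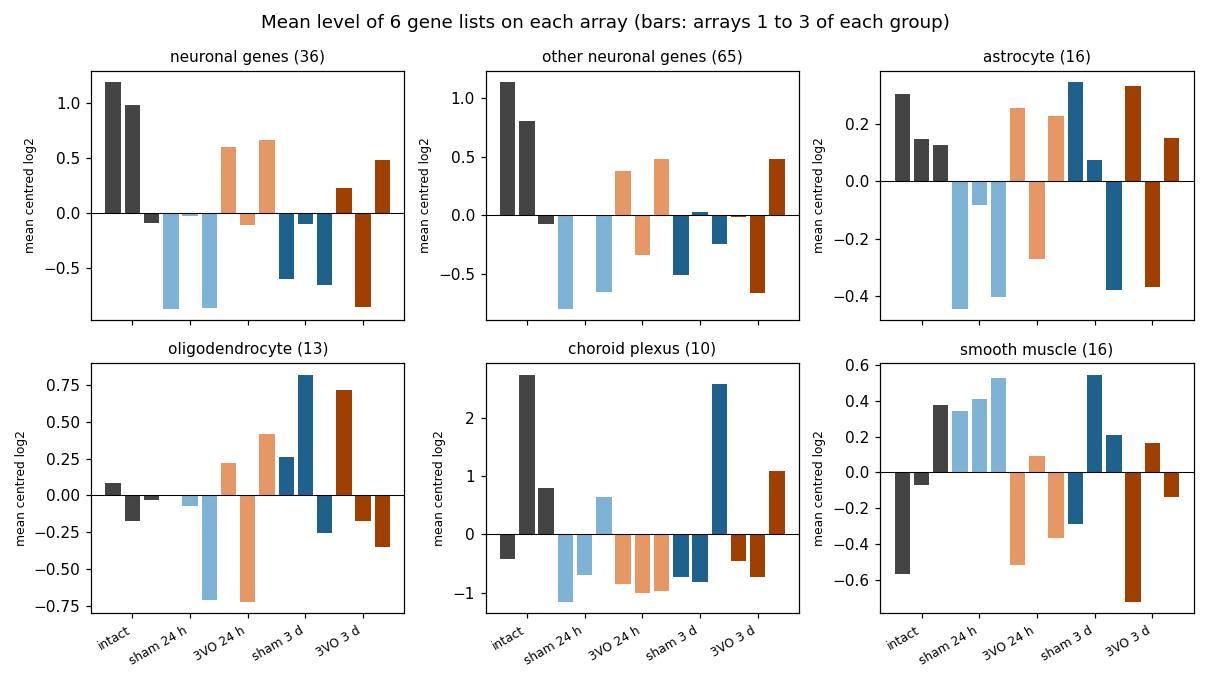
Mean log2 level of the genes of each list minus their own means over 15 arrays (y axis, a separate scale for each list) on each array (x axis, bars 1 to 3 of each group). The neuronal lists share their high and low arrays, smooth muscle is positive on all sham 24 h arrays where both neuronal lists are low or near 0, and choroid plexus peaks on intact array 2 and sham 3 d array 3.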

How the data were processed

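Total RNA of rat posterior cerebral arteries was measured on 15 Affymetrix Rat230A arrays, 3 per group. The deposited values are linear intensity values that the authors made in GCOS, per the submitters' processing notes, with one global scaling per array and no stated software version. Trimming 2% of the values at each end left a mean of 5000 on every array, although the design text names 500, so the signals are on a larger scale than stated. The 3 arrays of a group limit the precision.

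Symbols came from the platform annotation, with updates through RefSeq. A single gene was named for 12783 of the 15923 probe sets, several for 312 and none for 2771, and 57 control probe sets were left out. For each gene the probe set with the highest mean signal was used. Probe sets with a signal of at least 100 on at least 3 arrays were tested (15737), and all 36 members passed. limma 3.58.1 in R 4.3.3 fitted 5 group means to log2(signal + 16) over 15 arrays, with 10 residual and 4.83 prior degrees of freedom, a variance trend, 2-sided tests and Benjamini-Hochberg adjustment over all probe sets in each of 7 contrasts. Each log2 difference subtracts 2 group means and carries the SE of limma. The script was tested on simulated data. Replicate numbers follow the order of the records, so no pairing was used.

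The members and lists were chosen with earlier results of these data known. Array values are given for the 3 members of highest mean signal in each role (2 in roles of 3 members), for the 3 with the smallest unadjusted p in each contrast and for those opposed in sign to the list, and Slc17a7 was added for its comparison with Gad1 after its values were seen. Other genes are the 10 with the most similar pattern and up to 3 of the highest mean signal in each list. Alternatives were pseudocounts of 1 and 64, no filter, minimums of 300 and of 1000 with a pseudocount of 160, quantile normalization, median centring, no variance trend, array weights, only the groups of a contrast, all probe sets of a gene averaged, and each array left out. Added after the data were seen were fits without 2 arrays at once and with signals under 100 raised to 100.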

Additional observations from a re-analysis of the deposited data

How the results depend on the processing

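The median difference of the 36 genes kept its sign in all 7 comparisons over 28 alternatives, 3 of them added after the data were seen. A fit without the variance trend was run for the tests alone. Members that passed were 0 in each comparison under each alternative, except when intact array 3 was left out. With sham 3 d array 1 left out as well, as 1 of the added alternatives, 15 passed for sham at 24 h, 0 for sham at 3 d, 1 for 3VO at 24 h and 1 for 3VO at 3 d, each against intact. Another raised signals under 100 to 100, and 0 passed. Over the fits that leave out 1 array, the number passed ran from 0 to 16 for sham at 24 h against intact, 0 to 5 for sham at 3 d, 0 to 1 for 3VO at 24 h and 0 to 1 for 3VO at 3 d against intact. With intact array 3 left out the intact group has 2 arrays, and the other groups supply most of the estimated spread. The median for 3VO against sham ran from 0.71 to 1.31 at 24 h, with 35 or 36 genes higher, and from 0.03 to 0.78 at 3 d, with 20 to 36 higher. The value of Kcnc2 at 24 h ran from 0.58 to 2.65, and the lowest came with its probe sets averaged. Dim probe sets, such as those with a mean signal of 82.1 to 277 for Gap43, Grin1, Kcnc2 and Camk2a, limit what can be read of direction.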

Other observations

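Genes of hypothalamic and pituitary cells were high on a few arrays of different groups. Avp, the precursor of vasopressin, read 46152 on sham 24 h array 1, 15090.2 on intact array 2 and 12584 on intact array 1, and at most 2258 on the other 12 arrays. Oxt, the precursor of oxytocin, read 18615, 4505 and 4740.1 on the same arrays and at most 2245 on the others. Intact arrays 1 and 2 also had the highest means of the 36 neuronal genes, whereas sham 24 h array 1 had the lowest. Gh1, growth hormone, read 24591 on 3VO 3 d array 2 and 10118 on sham 24 h array 2, with a median of 1569 over the 15 arrays. Pmp22, a myelin protein of peripheral nerve that other cells also make, read 157821 on sham 3 d array 1, 95124 on 3VO 24 h array 1 and 95113 on 3VO 3 d array 1, with a median of 38176. Those arrays carry the numbers 3, 1 and 2 of the array series. Their high Pmp22 readings and their position in the series cannot be told apart. All arrays named here were picked out after their values were seen, and no test was made.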
